A study of Mus musculus with 12 samples.

Results

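The hormone genes of the enteroendocrine cell were followed in murine jejunal enteroids, which are epithelial organoids grown from intestinal crypts. The 10 genes were chosen by symbol: Gcg, Gip, Sct, Cck, Nts, Pyy, Sst, Ghrl and Tac1, which encode peptide hormones, and Chga, which encodes the granule protein chromogranin A. All 10 had a row among the 18929 genes with counts. RNA-Seq was performed on 12 libraries in 3 groups of 4: control enteroids (villin-Cre, called wild-type in the methods), Hdac1-deficient enteroids and Hdac2-deficient enteroids, each cultured for 5 days in ENR medium, a standard growth medium for intestinal crypts. The floxed Hdac1 or Hdac2 allele was deleted by a Cre recombinase under the villin promoter, which is active in intestinal epithelial cells, on a C57BL/6J x 129SV x CD1 background that all 3 groups share. The age of the mice is not given in the sources used here. Crypts came from 1 mouse per genotype according to the methods. Whether the 4 libraries in each group stem from separate cultures is not given, so the p-values measure the spread between libraries, and a genotype and the mouse that carried it cannot be told apart.

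Enteroendocrine cells are rare secretory cells scattered through the gut lining. They sense nutrients at their apical side and release peptide hormones from dense granules at their base. Each hormone is made as a larger precursor that is cut by prohormone convertases and then trimmed and amidated, while chromogranins and secretogranins help to pack the granule. The hormone made is used to class the cells: ghrelin and cholecystokinin cells are frequent in the upper gut, cells producing glucagon-like peptides, peptide YY and neurotensin become more frequent further down, and tachykinin transcripts mark many serotonin-producing enterochromaffin cells. HDAC1 and HDAC2 are class I histone deacetylases, which remove acetyl groups from lysines of histones and other proteins.

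The libraries held 20693200 to 30658628 counts. As a check of the labels, Hdac1 measured 87.5 to 94.4 CPM (counts per 1000000 counts of the library, scaled with TMM factors) in control libraries and 3.37 to 5.09 CPM in Hdac1-deficient libraries, and Hdac2 measured 132 to 141 CPM in control libraries and 73.2 to 78.8 CPM in Hdac2-deficient libraries. These counts are over the whole gene and include any reads from exons outside the deleted part. Of the other cell types that make some of these peptides, markers of enteric neurons and glia were low, with 7 of 15 measured and a summed level of 5.64 to 10.7 CPM per library, of which the tyrosine kinase receptor gene Ret gave most. Stromal and endothelial markers measured in all 3 groups (4 of 13) summed to 1.33 to 2.49 CPM.

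Most of the hormone transcripts were higher in both mutants. In Hdac1-deficient enteroids, 7 of the 10 genes passed an adjusted p of 0.05 with a rise above 2-fold (Gcg, Gip, Sct, Cck, Nts, Sst and Ghrl), beside 6.87% of the 14246 genes tested. In Hdac2-deficient enteroids, 6 of the 9 tested genes did so (Gcg, Gip, Sct, Cck, Nts and Ghrl), beside 5.45% of 14007. With no limit on the fold change, 9 of 10 genes rose in Hdac1-deficient enteroids, beside 32.7% of all genes, and 7 of 9 in Hdac2-deficient enteroids, beside 31.4%. Chga was the single gene that fell, in Hdac2-deficient enteroids, where 30.9% of all genes fell. The median log2 fold change was 1.18 over the 10 genes in Hdac1-deficient enteroids, where that of all genes tested was -0.004, and 1.12 over the 9 genes in Hdac2-deficient enteroids, where that of all genes was -0.0036. Both comparisons use the same 4 control libraries. In whole enteroids, more cells of a type and more RNA per cell cannot be told apart.

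**Figure D1:**
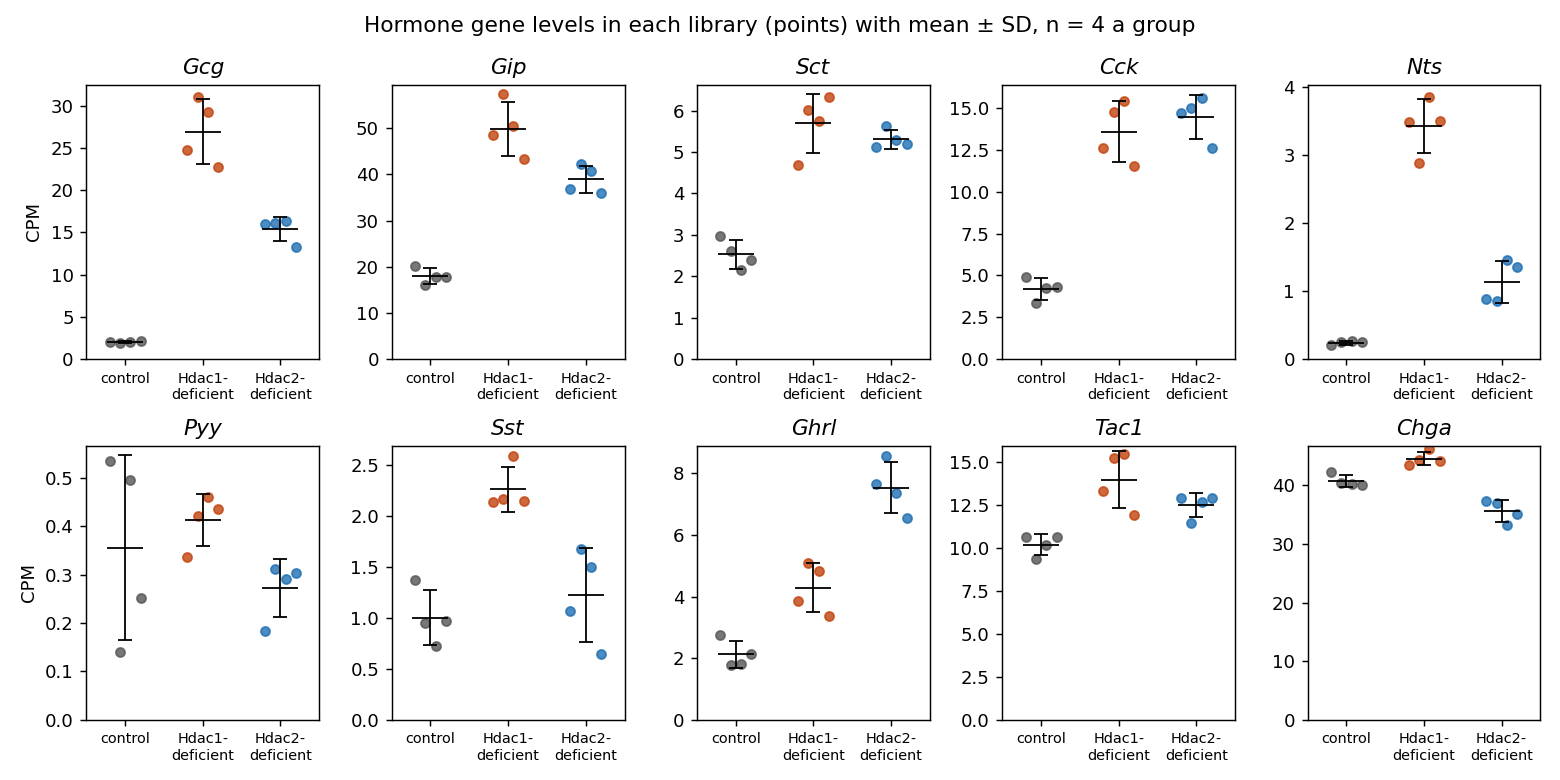
Level of each hormone gene in CPM (linear axes from 0, a scale per gene) in every library, with points for libraries, a horizontal bar for the mean and whiskers for the SD (n = 4 a group). The mutant points of Gcg, Gip, Sct, Cck, Nts, Ghrl and Tac1 all lie above the control points, while those of Pyy overlap them.

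The groups did not overlap for most of these genes. All 4 Hdac1-deficient libraries lay above all 4 control libraries for 9 of the 10 genes, beside 28.5% of the genes tested, and all 4 Hdac2-deficient libraries lay above control for 7 of 10, beside 27.9%. Chga was the 1 gene whose Hdac2-deficient libraries all lay below control, as did those of 28.3% of all genes. In Hdac1-deficient enteroids this held for 0 of the 10 genes and for 30.0% of all genes.

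The 250 bases upstream of the start site are shown for 5 genes that differ in their response: Gcg and Nts had the largest rises, Sst rose in 1 mutant, Ghrl rose more in Hdac2- than in Hdac1-deficient enteroids, and Chga changed little. The sequences are from RefSeq on GRCm38.p6 and read 5′ to 3′ on the gene's strand. They lie at chr2:62483654-62483903 for Gcg, chr10:102490419-102490668 for Nts, chr16:23890845-23891094 for Sst and chr6:113719912-113720161 for Ghrl, all on the minus strand, and at chr12:102554691-102554940 for Chga on the plus strand. Ghrl has 4 such windows, of which the one nearest its annotated start was taken. Capitals mark matches on either strand to 4 short motifs. The TATA box was searched as TATAAA, and the core of a cAMP response element as TGACG. An AP-1 site was searched as TGANTCA. The E-box, the kind of site that basic helix-loop-helix factors bind, was searched as CAGNTG. Matches of different motifs did not overlap in these 5 windows.
Gcg: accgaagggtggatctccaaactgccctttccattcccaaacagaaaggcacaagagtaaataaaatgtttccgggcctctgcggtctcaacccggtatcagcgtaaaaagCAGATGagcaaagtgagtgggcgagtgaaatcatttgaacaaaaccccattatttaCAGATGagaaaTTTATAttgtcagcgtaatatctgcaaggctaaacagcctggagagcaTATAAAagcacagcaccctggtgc
Nts: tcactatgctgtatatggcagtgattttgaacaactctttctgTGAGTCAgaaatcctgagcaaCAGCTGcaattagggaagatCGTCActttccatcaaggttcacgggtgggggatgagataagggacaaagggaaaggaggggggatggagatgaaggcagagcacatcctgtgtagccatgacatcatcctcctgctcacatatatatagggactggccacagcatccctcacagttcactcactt
Sst: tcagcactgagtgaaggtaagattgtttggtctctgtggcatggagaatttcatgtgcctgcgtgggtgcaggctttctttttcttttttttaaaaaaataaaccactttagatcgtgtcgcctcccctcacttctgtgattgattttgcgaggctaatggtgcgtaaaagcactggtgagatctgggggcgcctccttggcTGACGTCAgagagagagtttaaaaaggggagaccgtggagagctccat
Ghrl: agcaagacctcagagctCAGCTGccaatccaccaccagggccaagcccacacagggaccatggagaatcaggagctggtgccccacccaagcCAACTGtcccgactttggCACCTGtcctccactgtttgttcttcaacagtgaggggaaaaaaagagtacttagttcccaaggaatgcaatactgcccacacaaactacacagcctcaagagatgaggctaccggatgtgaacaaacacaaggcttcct
Chga: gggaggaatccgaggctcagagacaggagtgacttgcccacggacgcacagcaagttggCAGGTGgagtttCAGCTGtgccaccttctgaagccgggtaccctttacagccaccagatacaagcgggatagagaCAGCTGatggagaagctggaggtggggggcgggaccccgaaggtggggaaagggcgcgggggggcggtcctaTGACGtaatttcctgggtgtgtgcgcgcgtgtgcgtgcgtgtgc
Gcg held a TATA box with its first base 24 bases upstream of the start and another 72 bases upstream. Nts held the single AP-1 match, 207 bases upstream, with an E-box and a cAMP core between it and the start site. In Sst, the 2 cAMP cores overlap and form the palindrome for which this promoter is known, 48 bases upstream. Ghrl and Chga each held 3 E-boxes, and Chga a cAMP core 44 bases upstream. Over the upstream windows of the 10 genes, the TATA box was found in 2, the cAMP core in 5, the AP-1 site in 1 and the E-box in 8. Of 32851 mouse windows of the same length, 12.4%, 17.8%, 6.75% and 44.8% held these motifs. These are matches of letters, and no binding was measured.

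Gcg (ENSMUSG00000000394, chr2:62474530-62483650, minus strand, GRCm38) encodes proglucagon, from which intestinal L cells cut glucagon-like peptide 1, an incretin that promotes insulin release, and glucagon-like peptide 2. It measured 2.01, 1.86, 1.98 and 2.18 CPM in control replicates 1 to 4, 24.7, 31.0, 29.2 and 22.7 CPM in Hdac1-deficient replicates and 16.0, 16.1, 16.3 and 13.3 CPM in Hdac2-deficient replicates. The 3 groups did not overlap, and the order was control, Hdac2-deficient, Hdac1-deficient. The log2 fold change was 3.76 (SE 0.12, adjusted p = 2.6e-14) in Hdac1-deficient enteroids and 2.95 (SE 0.10, adjusted p = 3.3e-16) in Hdac2-deficient enteroids, or 13.6- and 7.74-fold. The mutants also differed from each other, by 0.80 on the log2 scale (SE 0.09, adjusted p = 1.3e-07). Gcg rested on 52 to 60 counts in control libraries and on 307 to 957 in the mutants.

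Gip (ENSMUSG00000014351, chr11:96024545-96030831, plus strand) encodes glucose-dependent insulinotropic polypeptide, the other incretin, made by K cells. Its levels were 20.2, 16.0, 17.7 and 17.8 CPM in control libraries, 48.5, 57.3, 50.5 and 43.2 CPM in Hdac1-deficient libraries and 36.9, 42.2, 40.7 and 35.9 CPM in Hdac2-deficient libraries. All mutant libraries were above all control libraries, and the lowest Hdac1-deficient library was above the highest Hdac2-deficient one. Gip rose by 1.49 (SE 0.09, adjusted p = 8.8e-09) and 1.12 (SE 0.07, adjusted p = 3.5e-11) on the log2 scale, and the mutants differed by 0.36 (SE 0.08, adjusted p = 0.0024). Both incretin genes were therefore higher with either gene deleted, and higher in Hdac1- than in Hdac2-deficient enteroids.

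Nts (ENSMUSG00000019890, chr10:102481756-102490486, minus strand) encodes neurotensin, which is released after fatty meals and promotes fat absorption. It was the least abundant of the 10 genes per length in control enteroids, with 6 to 8 counts per library, or 0.201, 0.246, 0.264 and 0.252 CPM. The Hdac1-deficient libraries held 3.49, 2.88, 3.84 and 3.49 CPM, and the Hdac2-deficient libraries 0.884, 0.859, 1.45 and 1.34 CPM. The groups were again separate, in the order control, Hdac2-deficient, Hdac1-deficient. The log2 fold change was 3.82 (SE 0.21, adjusted p = 2.7e-12) in Hdac1-deficient and 2.20 (SE 0.29, adjusted p = 1.4e-06) in Hdac2-deficient enteroids, with control counts this low behind both. Between the mutants, Nts differed by 1.61 (SE 0.17, adjusted p = 1.5e-08), the largest of the 10 differences and the single one above 2-fold, beside 2.74% of the 14510 genes tested that were more than 2-fold higher in Hdac1- than in Hdac2-deficient enteroids.

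Pyy (ENSMUSG00000017311, chr11:102106676-102107832, minus strand) encodes peptide YY, a satiety hormone that L cells of the lower gut release together with glucagon-like peptides. It measured 0.536, 0.141, 0.495 and 0.252 CPM in control libraries, 0.337, 0.421, 0.460 and 0.436 CPM in Hdac1-deficient libraries and 0.184, 0.312, 0.291 and 0.304 CPM in Hdac2-deficient libraries. The control range contained every mutant library, so the groups overlapped. Libraries held 4 to 16 counts of it. The log2 fold change was 0.20 (SE 0.35, adjusted p = 0.63) in Hdac1-deficient enteroids, and Pyy was below the count filter in the Hdac2 comparison. The mutants differed by 0.61 (SE 0.38, adjusted p = 0.20), with all 4 Hdac1-deficient libraries above all 4 Hdac2-deficient libraries.

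Cck (ENSMUSG00000032532, chr9:121489824-121495694, minus strand) encodes cholecystokinin, which contracts the gallbladder and triggers pancreatic enzyme secretion. The control libraries held 4.89, 3.34, 4.26 and 4.29 CPM, the Hdac1-deficient libraries 12.6, 14.8, 15.4 and 11.6 CPM and the Hdac2-deficient libraries 14.7, 15.0, 15.6 and 12.6 CPM. Cck was thus higher in every mutant library than in every control library, and the 2 mutants overlapped. The log2 fold changes were 1.71 (SE 0.11, adjusted p = 2.3e-10) and 1.79 (SE 0.10, adjusted p = 1.1e-12), and the difference between mutants was -0.08 (SE 0.09, adjusted p = 0.49).

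Sct (ENSMUSG00000038580, chr7:141278330-141279133, minus strand) encodes secretin, which stimulates bicarbonate secretion by the pancreas. It measured 2.98, 2.60, 2.15 and 2.39 CPM in control libraries, 4.69, 6.03, 5.75 and 6.33 CPM in Hdac1-deficient libraries and 5.12, 5.62, 5.28 and 5.21 CPM in Hdac2-deficient libraries. The Hdac2-deficient values lay within the range of the Hdac1-deficient ones, and both were above control. Secretin transcripts rose by 1.18 (SE 0.12, adjusted p = 6.7e-08) and 1.07 (SE 0.12, adjusted p = 6.8e-08) on the log2 scale, and the mutants differed by 0.10 (SE 0.11, adjusted p = 0.45). Cck and Sct, which are often found in the same cells, are 2 of the 4 genes whose difference between the mutants did not pass the test.

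Ghrl (ENSMUSG00000064177, chr6:113716119-113719880, minus strand) encodes ghrelin, a hunger hormone that is active after octanoylation. Control libraries held 2.75, 1.79, 1.82 and 2.14 CPM, Hdac1-deficient libraries 3.86, 5.08, 4.83 and 3.38 CPM and Hdac2-deficient libraries 7.66, 8.55, 7.37 and 6.55 CPM. The groups did not overlap, and the order was control, Hdac1-deficient, Hdac2-deficient, the reverse of the mutant order of Gcg, Gip and Nts. Ghrl rose by 1.03 (SE 0.16, adjusted p = 1.2e-05) in Hdac1-deficient and by 1.84 (SE 0.13, adjusted p = 7.7e-11) in Hdac2-deficient enteroids, and was lower in Hdac1- than in Hdac2-deficient enteroids by a log2 difference of -0.81 (SE 0.13, adjusted p = 9.1e-06). The first of these values was close to the 2-fold limit, and it fell to between 0.94 and 0.97 without control replicate 2 or 3 or Hdac1-deficient replicate 2 or 3, with an adjusted p of at most 9.7e-05. The annotated antisense gene Gm26982 overlaps Ghrl on the opposite strand, and the strand setting of the counting is not given in the sources used here. Gm26982 had 35 to 52 counts in control libraries, 44 to 68 in Hdac1-deficient libraries and 31 to 41 in Hdac2-deficient libraries, beside 51 to 82, 93 to 157 and 151 to 219 counts of Ghrl. The log2 fold change of Gm26982 was 0.48 (adjusted p = 0.031) in Hdac1-deficient and 0.08 (adjusted p = 0.74) in Hdac2-deficient enteroids. Without strand, reads of Ghrl and Gm26982 in their shared bases cannot be told apart.

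Sst (ENSMUSG00000004366, chr16:23889573-23890958, minus strand) encodes somatostatin, made by D cells, which restrains the release of most other gut hormones. It measured 1.37, 0.950, 0.727 and 0.966 CPM in control libraries, 2.14, 2.17, 2.60 and 2.15 CPM in Hdac1-deficient libraries and 1.07, 1.68, 1.50 and 0.651 CPM in Hdac2-deficient libraries. The Hdac1-deficient libraries all lay above control, while the Hdac2-deficient libraries overlapped the control range. Its log2 fold change was 1.18 (SE 0.18, adjusted p = 1.1e-05) in Hdac1-deficient and 0.29 (SE 0.26, adjusted p = 0.35) in Hdac2-deficient enteroids. The difference between the mutants was tested directly and was 0.89 (SE 0.21, adjusted p = 0.0012).

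Tac1 (ENSMUSG00000061762, chr6:7554879-7565834, plus strand) encodes the tachykinins substance P and neurokinin A, which act on gut muscle and nerves. Levels were 10.6, 9.36, 10.2 and 10.6 CPM in control libraries, 13.3, 15.2, 15.4 and 11.9 CPM in Hdac1-deficient libraries and 12.9, 11.5, 12.7 and 12.9 CPM in Hdac2-deficient libraries. Each mutant library exceeded each control library, by little. Tac1 rose by 0.47 (SE 0.08, adjusted p = 4.2e-05) and 0.30 (SE 0.07, adjusted p = 6.8e-04) on the log2 scale, both under 2-fold. The mutants differed by 0.17 (SE 0.08, adjusted p = 0.079). The difference passed the threshold without Hdac1-deficient replicate 4 (0.24, adjusted p = 0.0098).

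Chga (ENSMUSG00000021194, chr12:102554969-102565028, plus strand) encodes chromogranin A, an acidic granule protein that is used as a general marker of enteroendocrine cells. Its levels came to 42.3, 40.5, 40.2 and 40.1 CPM in control libraries, 43.5, 44.3, 46.1 and 44.2 CPM in Hdac1-deficient libraries and 37.3, 37.0, 33.3 and 35.0 CPM in Hdac2-deficient libraries. The 3 groups were narrow and separate, with Hdac2-deficient lowest and Hdac1-deficient highest. The log2 fold changes were small and opposite in sign, 0.14 (SE 0.04, adjusted p = 0.0053) in Hdac1-deficient and -0.18 (SE 0.04, adjusted p = 0.0013) in Hdac2-deficient enteroids, and the mutants differed by 0.32 (SE 0.04, adjusted p = 7.3e-07). Chga had 687 to 1404 counts per library. By qPCR, with Pbgd as the control gene, the paper reports increased Chga in both mutants. The fall in the Hdac2-deficient libraries is opposite in direction to that report, and the cause was not tested.

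**Figure D2:**
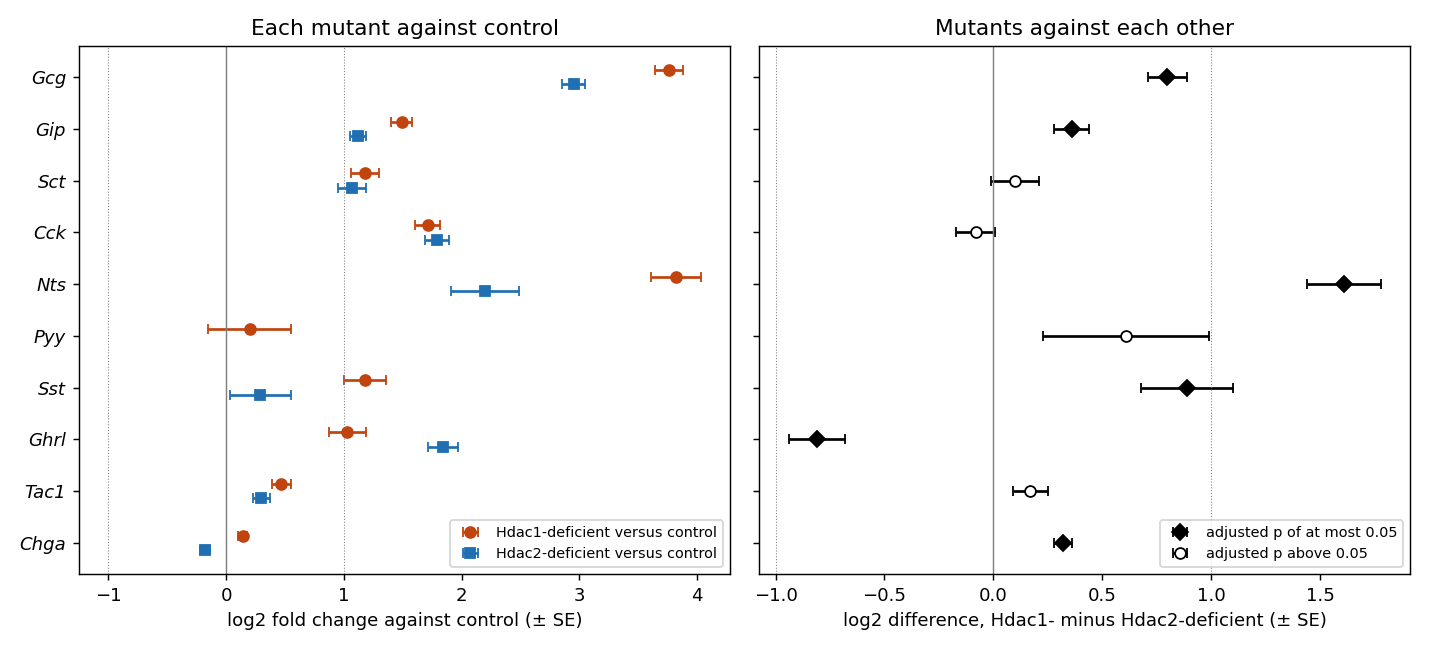
Log2 fold change of each hormone gene against control in both mutants (left) and log2 difference between the mutants (right), with whiskers for the SE and dotted lines at 2-fold; Pyy was not tested in the Hdac2 comparison. Gcg and Nts lie farthest from 0 at 3.76 and 3.82 in Hdac1-deficient enteroids, and Ghrl is the gene with a negative difference between mutants that passed the test, at -0.81.

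Between the 2 mutants, 6 of the 10 genes differed at an adjusted p of at most 0.05. Gcg, Gip, Nts, Sst and Chga were higher in Hdac1-deficient enteroids (5 of 10, beside 22.3% of all genes), and Ghrl was lower (1 of 10, beside 23.7%). No gene of the 10 fell more than 2-fold against control, which 3.71% of all genes did with Hdac1 deleted and 2.84% with Hdac2 deleted. At an unadjusted p under 0.05, the count that fell at all was 0 in the former and 1 (Chga) in the latter, and DESeq2 with an adjusted p of 0.05 gave the same counts. None was more than 2-fold lower in Hdac1- than in Hdac2-deficient enteroids, beside 2.89% of all genes, the lowest difference being the -0.81 of Ghrl.

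Summed over all 10 genes, the level was 76.8 to 87.9 CPM in control libraries, 149 to 179 CPM in those without Hdac1 and 124 to 139 CPM in those without Hdac2. Without Chga, control libraries held 36.3 to 45.6 CPM, Hdac1-deficient libraries 105 to 135 CPM and Hdac2-deficient libraries 88.8 to 102 CPM. Per unit of Chga, the summed hormone level was 0.995 ± 0.075 (SD, n = 4) in control libraries, 2.70 ± 0.28 in those without Hdac1 and 2.72 ± 0.23 in those without Hdac2. The ranges of the 2 mutants overlapped, and both lay above the control range of 0.898 to 1.08. In Hdac1-deficient enteroids the libraries were not equally high: replicates 2 and 3 were above replicates 1 and 4 for 7 of the 10 genes, and replicate 3 was above its group's mean log2 level for 10 of 10. In control enteroids, replicate 1 was above its group's mean for 9 of 10. Setting replicates 2 and 3 apart from 1 and 4 is not part of the design. These counts were not made over all genes, so whether they are particular to the hormone genes was not tested.

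Levels can be compared between genes only per length, as CPM divided by the exon length in kilobases (RPKM). Gip was the most abundant gene in each group, at 26.1 ± 2.5 RPKM in control libraries, 72.6 ± 8.5 in those without Hdac1 and 56.6 ± 4.4 in those without Hdac2. In control enteroids, Chga followed at 14.8 ± 0.4 RPKM, then Sct (3.93 ± 0.55), Cck (3.21 ± 0.49), Tac1 (3.00 ± 0.18), Ghrl (1.97 ± 0.41), Sst (1.39 ± 0.37), Gcg (1.35 ± 0.09), Pyy (0.564 ± 0.302) and Nts (0.193 ± 0.022). Cck and Tac1, and Sst and Gcg, are neighbours whose means lie within 1 SD of each other. Gcg moved from the eighth place to the second in Hdac1-deficient enteroids, at 18.0 ± 2.6 RPKM, where it was within 1 SD of Chga (16.2 ± 0.4). In Hdac2-deficient enteroids, Chga (12.9 ± 0.7), Cck (11.1 ± 1.0), Gcg (10.3 ± 0.9) and Sct (8.23 ± 0.34) followed Gip, and Cck and Gcg lay within 1 SD.

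**Figure D3:**
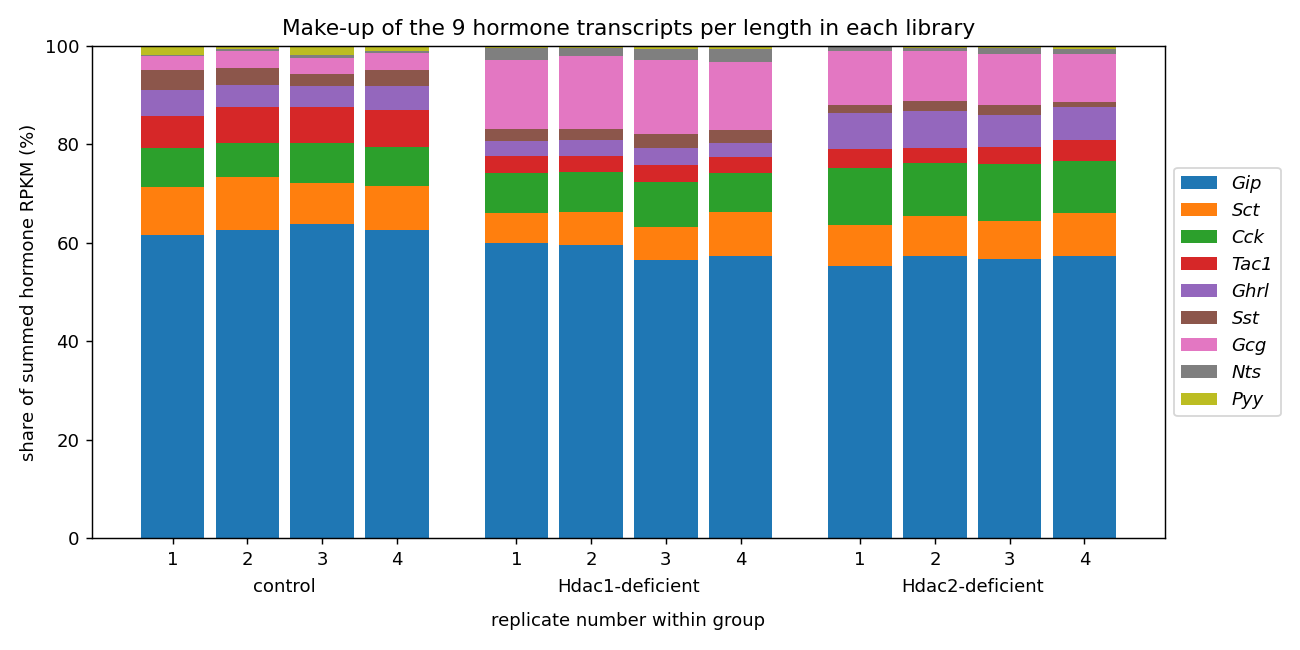
Share of each hormone gene in the summed RPKM of the 9 hormone genes without Chga (%, stacked bars from 0 to 100), 1 bar per library in 3 groups of 4. The Gcg share is 2.82 to 3.53% in control bars, 13.8 to 15.0% in Hdac1-deficient bars and 9.77 to 11.1% in Hdac2-deficient bars.

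The make-up of the hormone transcripts also differed between the groups. Gcg made up 3.24 ± 0.30% of the summed hormone RPKM in control libraries, 14.4 ± 0.6% in Hdac1-deficient and 10.3 ± 0.6% in Hdac2-deficient libraries. Gip kept the largest share, at 62.7 ± 0.9%, 58.3 ± 1.7% and 56.6 ± 0.9%. Tachykinin transcripts took 7.22 ± 0.46% in control libraries and 3.30 ± 0.14% and 3.70 ± 0.44% in the mutants, although their level was higher there. Ghrelin took 4.69 ± 0.50% in control libraries, 3.17 ± 0.28% in those without Hdac1 and 6.98 ± 0.44% in those without Hdac2, and the 3 ranges of its share did not overlap.

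The genes that pack and process these hormones moved largely in the same direction. Of 18 tested genes of granules and prohormone processing, 14 rose and 1 fell in Hdac1-deficient enteroids (median of the log2 fold changes 0.80). In Hdac2-deficient enteroids, 13 of 17 rose and 2 fell (median 0.72). Over all genes tested, 32.7% and 31.4% rose and 31.9% and 30.9% fell, the shares that stand beside the counts of each list that follows. Among the granins, Scg3, which binds chromogranin A in the granule, rose by 2.71 (SE 0.32, adjusted p = 3.6e-07) and 2.62 (SE 0.33, adjusted p = 6.3e-07) from 2 to 5 counts in control libraries, and Scg2 rose by 2.07 (SE 0.18, adjusted p = 3.7e-09) and 2.34 (SE 0.17, adjusted p = 1.0e-10). The neuroendocrine gene Resp18 rose by 2.22 and 1.91, and Qpct, whose enzyme forms the N-terminal pyroglutamate found on neurotensin, by 2.08 and 2.09 (adjusted p at most 1.7e-04 for each). Control libraries held only 2 to 7 counts of Resp18 and 1 to 7 of Qpct. The convertase gene Pcsk1, which cuts proglucagon to glucagon-like peptides, measured 5.42 CPM in control libraries, 5.62 in those without Hdac1 and 9.28 in those without Hdac2: its log2 fold change was 0.07 (adjusted p = 0.57) in the former, and it rose by 0.79 (adjusted p = 3.0e-07) in the latter, a direct difference at an adjusted p of 1.8e-07. Cpe, a carboxypeptidase that trims the cut peptides, rose by 0.91 and 0.97 (adjusted p = 1.1e-09 and 1.3e-10). Pam, the gene of the amidating enzyme, had 0.01 (adjusted p = 0.95) in Hdac1-deficient enteroids and rose by 0.46 (adjusted p = 1.8e-07) in Hdac2-deficient enteroids, and the mutants differed (adjusted p = 1.1e-06). Mboat4, which octanoylates ghrelin, had 2 to 11 counts in every library and was below the count filter.

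Other gut peptide genes rose as well: 7 of 8 tested in Hdac1-deficient enteroids and all 7 tested in Hdac2-deficient ones, with medians of 0.72 and 0.79. Of the 25 genes listed, 12 were measured. Chgb, which is also in the granule list, Nucb2, Edn1, Guca2a and Guca2b were among the risers in both mutants. Edn3, an endothelin, rose by 1.43 and 1.84 (adjusted p = 6.9e-08 and 9.7e-09), and Nmb, which encodes neuromedin B, rose by 1.28 (adjusted p = 0.010) in Hdac1-deficient enteroids. Nmb was below the count filter in the Hdac2 comparison, with 0.285 CPM beside 0.179 CPM in control, and the difference between the mutants did not pass (0.56, adjusted p = 0.26). Ucn3, a urocortin, rose in Hdac2-deficient enteroids by 1.72 (adjusted p = 7.5e-07), its value in Hdac1-deficient enteroids was 0.30 (adjusted p = 0.35), and the mutants differed (adjusted p = 6.0e-06). Of the serotonin genes, 4 of 7 rose and 1 fell in Hdac1-deficient enteroids and 4 of 6 rose and 1 fell in Hdac2-deficient enteroids. The serotonin synthesis gene Tph1 had -0.03 (adjusted p = 0.80) and -0.13 (adjusted p = 0.20). The rises of Ddc (0.19 and 0.33), Slc18a1 (0.24 and 0.38) and Maoa (0.39 and 0.49) were small. Slc18a1 and Slc18a2 are also in the granule list. Slc18a2, a vesicular amine transporter, rose by 1.97 (adjusted p = 2.8e-05) in Hdac1-deficient enteroids. It was below the count filter in the Hdac2 comparison, where its mean was 0.431 CPM beside 0.158 CPM in control, and the difference between the mutants did not pass (0.54, adjusted p = 0.12). The serotonin uptake transporter gene Slc6a4 fell by 0.60 and 1.02 (adjusted p = 2.2e-09 and 1.7e-13).

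**Figure D4:**
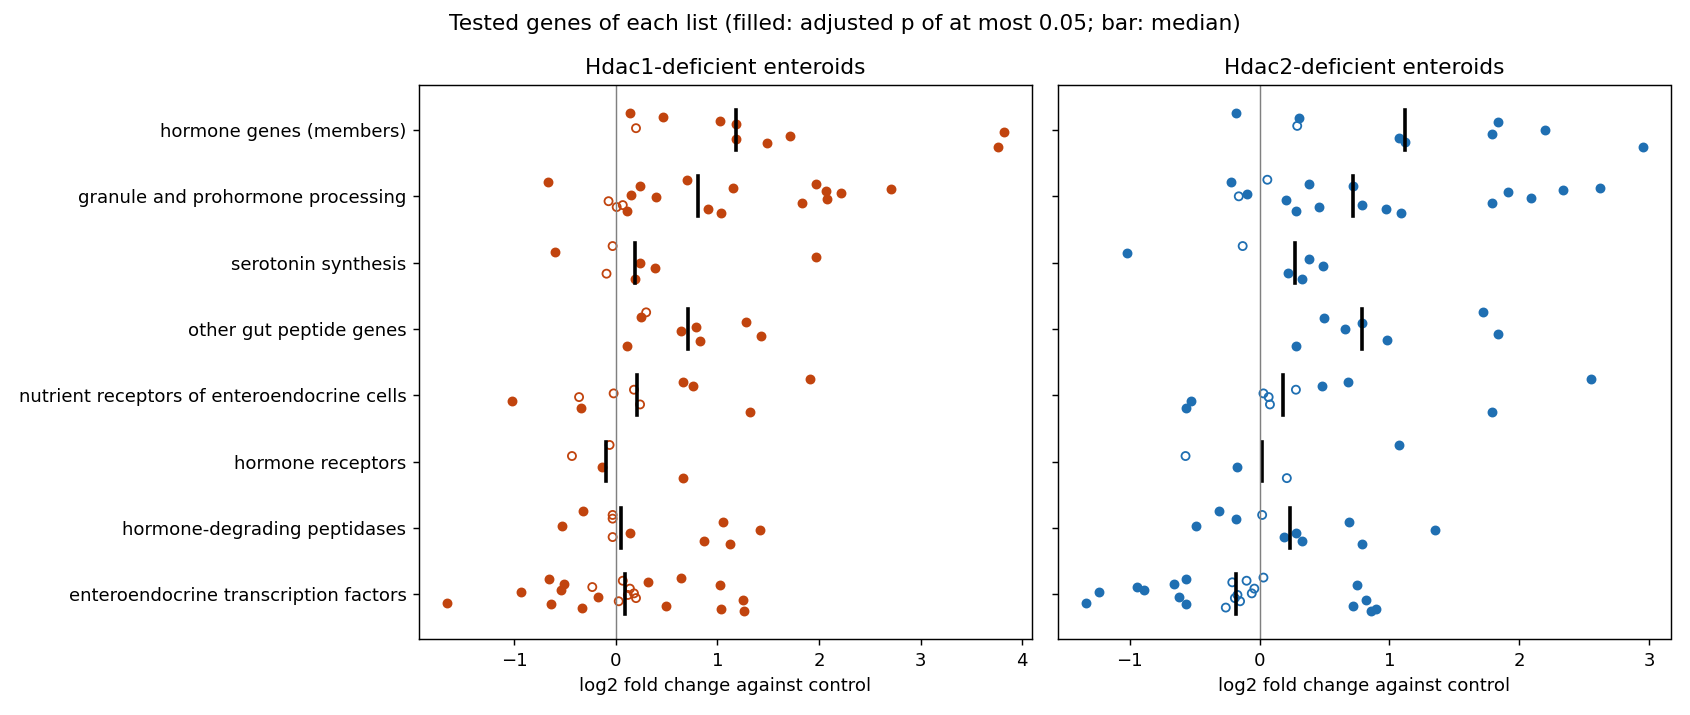
Log2 fold change against control of every tested gene of the hormone set and of 7 lists of related genes, in Hdac1-deficient (left) and Hdac2-deficient enteroids (right); filled points passed an adjusted p of 0.05, open points did not, and the black bar is the median. The medians of the hormone genes are 1.18 and 1.12, and those of the transcription factors 0.10 and -0.18.

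Of 22 tested transcription factors of the enteroendocrine lineage, 7 rose and 8 fell in Hdac1-deficient enteroids (median 0.10), and 5 rose and 8 fell in Hdac2-deficient enteroids (median -0.18). These counts lie near the shares over all genes, of which 32.7% rose and 31.9% fell with Hdac1 deleted and 31.4% rose and 30.9% fell with Hdac2 deleted. Isl1, which is needed for several hormone-producing cell types, rose by 1.25 in Hdac1-deficient enteroids (adjusted p = 6.5e-04) and by 0.82 in Hdac2-deficient enteroids (adjusted p = 0.035). Hhex, known from somatostatin cells of the pancreas, fell by 1.66 and 1.34 (adjusted p = 3.5e-05 and 2.7e-05), and Neurod2 fell by 0.93 and 1.24 (adjusted p = 0.0032 and 9.0e-04). Neurog3, the factor that starts the lineage, was added after its values were seen: it fell by 0.54 (adjusted p = 2.4e-06) and 0.89 (adjusted p = 2.8e-10).

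Nutrient receptors and channels of these cells were mixed, with 4 of 10 tested genes rising and 2 falling in each mutant. The irritant channel gene Trpa1 rose by 1.91 and 2.55 (adjusted p = 3.4e-07 and 9.9e-10) and Abcc8, a subunit of the ATP-sensitive potassium channel, by 1.32 and 1.79 (adjusted p = 3.4e-05 and 1.3e-06). Ffar4, a receptor for long-chain fatty acids, fell by 1.02 (adjusted p = 2.6e-09) and 0.53 (adjusted p = 1.3e-06). Receptors for the hormones themselves were mostly low. Gipr rose by 0.66 (adjusted p = 0.021) in Hdac1-deficient enteroids and had 0.21 (adjusted p = 0.54) in Hdac2-deficient ones, while Sstr2 had -0.06 (adjusted p = 0.88) in the former and rose by 1.07 (adjusted p = 0.0039) in the latter. The difference between the mutants (Hdac1- less Hdac2-deficient) was 0.45 (adjusted p = 0.14) for Gipr and -1.13 (adjusted p = 0.0025) for Sstr2. Sort1, which encodes the neurotensin-binding sorting receptor sortilin, fell by 0.13 and 0.17 (adjusted p = 0.0036 and 1.3e-04), and Sstr1 had -0.43 (adjusted p = 0.37) and -0.57 (adjusted p = 0.23). Gcgr, Npy1r, Sstr3 and Sstr5 had at most 11 counts in any library and were below the filter.

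Among 10 peptidases that degrade gut hormones, 5 rose and 2 fell in Hdac1-deficient and 6 rose and 3 fell in Hdac2-deficient enteroids. Dpp4, the enzyme that inactivates glucagon-like peptide 1 and glucose-dependent insulinotropic polypeptide, had -0.03 (adjusted p = 0.37) in Hdac1-deficient enteroids and rose by 0.19 (adjusted p = 1.0e-05) in Hdac2-deficient enteroids, a difference between the mutants of -0.23 in the same order (adjusted p = 7.8e-07). The brush border enzymes Enpep (1.42 and 1.35), Ace (1.12 and 0.79) and Mme (1.06 and 0.69) rose in both mutants, each at an adjusted p of at most 1.8e-07.

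Markers of other epithelial cells also moved with the genotype. The 11 enterocyte markers all rose in both mutants, and their summed level went from 10090 to 10690 CPM in control libraries to 19450 to 22210 CPM in those without Hdac1 and 15620 to 17580 CPM in those without Hdac2. Of 8 stem cell markers, 6 fell with Hdac1 deleted and 7 with Hdac2 deleted, while Tnfrsf19 rose in both, and the sum went from 4731 to 4858 CPM to 2868 to 3320 and 2580 to 2810 CPM. Goblet cell markers rose in 4 of 10 and fell in 2 of 10 in Hdac1-deficient enteroids and rose in 8 of 10 in Hdac2-deficient enteroids, where their summed level was 3094 to 3328 CPM, beside 1927 to 2147 CPM in control and 2013 to 2157 CPM in Hdac1-deficient libraries. Of 6 tested Paneth cell markers, 2 rose and 1 fell with Hdac1 deleted and 5 rose with Hdac2 deleted, from a summed 2121 to 2482 CPM in control to 3106 to 3369 and 3383 to 3530 CPM. With Hdac1 deleted, the risers were Lyz1 (546 CPM in control, 1291 CPM without Hdac1) and Itln1 (792 and 1113 CPM). Ang4 fell by 0.63 there (adjusted p = 6.7e-11), and the median log2 fold change of the tested Paneth cell markers was 0.02. Tuft cell markers summed to 6.93 to 8.09 CPM in control libraries, 7.20 to 9.90 CPM in those without Hdac1 and 5.03 to 5.82 CPM in those without Hdac2, and enteric neuron and glia markers to 9.78 to 10.7, 5.64 to 8.20 and 6.21 to 7.33 CPM. Of the immune markers, measured for 4 of 14, Ptprc stayed below 0.1 CPM on average in each group, and the sum of 28.9 to 36.8 CPM was mostly Kit, which epithelial cells also express. Pancreatic markers, measured for 7 of 15, summed to 148 to 152 CPM in control and 219.5 to 276 CPM in mutant libraries, mostly the enterocyte glucose transporter gene Slc2a2, and islet amyloid gene Iapp had at most 8 counts. Of the markers called more than 2-fold changed in either mutant, Retnlb of goblet cells had fitted log2 fold changes of 8.55 with Hdac1 deleted and 9.26 with Hdac2 deleted, values that depend on the prior count because control libraries held 2 to 4 counts of it. In the same order, rises were found for Lct of enterocytes (2.86 and 2.03), Clca1 (1.22 and 2.13) and Zg16 (1.36 and 1.86) of goblet cells and Apoa1 (1.74 and 1.48) and Apoa4 (1.28 and 0.65) of enterocytes. Lyz1 of Paneth cells rose by 1.26 and 1.16, Sis of enterocytes by 1.03 and 0.62, Tnfrsf19 by 1.28 and 1.07 and the myeloid gene Itgam by 1.28 and 1.69, while Olfm4 of stem cells fell by 0.82 and 1.23 (adjusted p at most 3.3e-05 for each). Pdx1 had -0.28 (adjusted p = 0.094) in Hdac1-deficient enteroids and rose by 1.51 (adjusted p = 3.0e-10) in Hdac2-deficient ones. The part of these cell types in the hormone results was not tested.

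Nts, Gcg and Cck, which had the largest log2 fold changes in Hdac1-deficient enteroids, were compared with other genes over the 12 libraries. The genes whose levels followed theirs most closely were sought among the 11509 genes whose average log2 CPM reached 1. Closeness was the root mean square difference in log2(CPM + 0.5) less the control mean. For Cck the closest genes were Sprr1a (0.117), the secretory lectin gene Reg4 (0.163) and the granin gene Scg2 (0.182), for Nts they were Prss30 (0.150), Trip6 (0.183) and Npl (0.201), and for Gcg they were Orai3 (0.226), Ulbp1 (0.231) and Wipf1 (0.255). Reg4 measured 54.5 CPM in control libraries, 150 in those without Hdac1 and 183 in those without Hdac2. The pseudocount lowers the differences of weakly expressed genes such as Nts, so its neighbours, with log2 fold changes of 2.41 to 2.81 in Hdac1-deficient enteroids, moved less than its own 3.82. The same holds for Orai3 and Ulbp1, at 0.48 and 0.082 CPM in control libraries. Their log2 fold changes in Hdac1-deficient enteroids were 4.38 and 5.93, above the 3.76 of Gcg, while that of Wipf1 was 3.39.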

How the data were processed

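RNA-Seq was performed by the authors on poly(A) RNA of 12 enteroid libraries with a directional kit (paired reads on a HiSeq4000), and only samples passing their RNA integrity limit were kept. The authors aligned reads to GRCm38 with STAR (2.4.0f1 in the submitters' processing notes, which also name bcl2fastq 1.8.4); the counting program and its strand setting are not given in the sources used here. They deposited a table for each mutant (2 in all), and the 4 control libraries are in both. The values used are the authors' raw read counts per gene, not normalized, and the listed genes have a summed count of at least 10. The authors' normalized columns and their own fold changes and p-values were not used.

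Groups follow the labelled genotype. Counts were tested with edgeR (4.0.16, R 4.3.3; quasi-likelihood F test, robust, TMM, filterByExpr) with Benjamini-Hochberg adjustment over 14246 genes (Hdac1), 14007 (Hdac2) and 14510 (mutants compared, all 12 libraries). SE is the log2 fold change divided by the root of F. On simulated counts with 200 changed genes, 99.5%, 100.0% and 99.5% were called. Recovery of genes with counts as low as those of Pyy, or with fold changes below 2, was not tested. The members and gene lists were chosen with earlier results of these data known. Named from each list were up to 4 called genes with the largest changes, plus processing enzymes and hormone receptors whatever their result; some genes this rule would name are not reported here. CPM used the factors of all 12 libraries, and RPKM the merged exon length in GENCODE M21, which held 18817 of 18929 identifiers. Depth was 20693200 to 30658628 counts per library. The alternatives were DESeq2 (1.42.0), other scalings and filters, a replicate block and each library left out.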

Additional observations from a re-analysis of the deposited data

Results flagged for a closer look

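The difference between Hdac1- and Hdac2-deficient enteroids passed the test for 6 of the 10 genes (edgeR, adjusted p of at most 0.05): the log2 difference was 1.61 for Nts, 0.89 for Sst, 0.80 for Gcg, 0.36 for Gip and 0.32 for Chga, all higher in Hdac1-deficient enteroids, and -0.81 for Ghrl, which was higher in Hdac2-deficient enteroids.

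In 4 of 30 groups of 4 libraries (10 genes in 3 groups), 1 library stood apart from the other three by Dixon's criterion, which chance meets in about 1 of 20 groups. These were the lowest Hdac2-deficient library for Gcg (13.3 CPM, replicate 4) and for Pyy (0.184 CPM, replicate 1), the highest Hdac1-deficient library for Sst (2.60 CPM, replicate 3) and the highest control library for Chga (42.3 CPM, replicate 1). Leaving out any of these libraries left the calls on Gcg, Sst and Chga in place.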

How the results depend on the processing

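The number of hormone genes rising more than 2-fold was 6 to 7 in Hdac1-deficient and 5 to 6 in Hdac2-deficient enteroids with 1 library left out; Ghrl (Hdac1) and Sct (Hdac2, 0.99 without control replicate 3) were the genes that crossed the 2-fold limit. With no fold limit, the numbers rising were 9 and 7. The number differing between the mutants was 6 to 7 with 1 library left out, 7 with library size alone, where Tac1 passed (0.20, adjusted p = 0.043), and 1 (Nts) when a difference above 2-fold was also required. The same-numbered libraries did not deviate together (correlations of -0.0455 to 0.0913), so the numbers are not taken to pair samples; with the replicate block, 7, 6 and 6 genes were called in the 3 comparisons, as without it. With 1 library left out, Pyy ranged from -0.07 (adjusted p = 0.87, without control replicate 2) to 0.46 in Hdac1-deficient enteroids. It had -0.42 in Hdac2-deficient enteroids with no filter (adjusted p = 0.44) or with all 12 libraries in 1 fit (adjusted p = 0.36); the cause was not tested. Of the 473 values of single genes under alternatives, 470 kept their direction and their side of the adjusted p threshold of 0.05. Crossings of the 2-fold limit, as by Ghrl and Sct, do not enter this count. The fewest counts were behind Pyy (4 to 16 per library) and the control level of Nts (6 to 8).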
